A study of Rattus norvegicus with 2 samples.

Results

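Krtdap, Sbsn, Dmkn, Calml5, Calml3, Cnfn and Cdsn code for proteins that keratinocytes make as they leave the basal layer of the epidermis. They were chosen by name, with earlier results of these same arrays known. All 7 had a probe set whose platform annotation gives 1 gene symbol, among 22093 genes with such a probe set, and each of the 7 had 1 probe set. The differences given for the 7 genes are therefore a description and carry no test.

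RNA was measured on GeneChip arrays in newborn rat epidermal keratinocytes, which the labels call NRK cells. Cells on 1 array had received 5 µM of all-trans retinoic acid (RA), dissolved in dimethyl sulfoxide, until day 5, and cells on the other array had reached day 5 without it. Both cultures grew in DMEM with 0.4 µg/mL hydrocortisone and 10% fetal bovine serum, renewed every 24 h. The title of the array without RA names no treatment, and it was taken as the vehicle control that the design describes. Rat strain and sex, and whether an array holds 1 culture or several, are not given in the sources used here. Each group is 1 array, so the values below have no error, and how much cultures vary from one another is unknown.

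Levels are log2 signals as deposited, and each difference is taken as the RA array's signal minus that of the array without RA, so that -1 is 2-fold lower with RA on the deposited scale. That scale reaches 19.93 on both arrays, beyond the log2 range of a 16-bit scanner image, and how the values came to that range is not given. A gene counts as above the floor where its higher signal reached 3.81, the median of all values. All 7 genes passed it, Calml5 only through the array without RA. Another yardstick is the 1153 probe sets whose names mark them as rat negative controls, with medians of 4.47 on the RA array and 4.57 on the array without RA. Their 90th percentiles were 6.98 and 7.21 on the same arrays. Most of their differences ran from -2.17 to 2.01, with extremes of -4.12 and 4.61. Of these controls, 181 (15.7%) were at least 2-fold lower with RA, and the number higher by as much is not given here. A difference just past 2-fold, on a gene with both signals under those percentiles, is therefore not told from the controls.

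Krtdap (keratinocyte differentiation-associated protein), Sbsn (suprabasin) and Dmkn (dermokine) are secreted proteins of the suprabasal layers. Their genes lie together in a cluster that is also known in human and mouse. Calml5 and Calml3 belong to the calmodulin-like proteins, small calcium-binding proteins with EF hands. In human skin CALML5 is made by differentiating keratinocytes, and human CALML3 is an epithelial protein that binds the motor protein myosin X. Cnfn (cornifelin) is a component of the cornified envelope, the protein shell of dead surface cells. Cdsn (corneodesmosin) is an adhesion protein of corneodesmosomes, the junctions that hold those cells together. RA, the vitamin A metabolite that binds nuclear RA receptors, is long known to hold back terminal differentiation of cultured keratinocytes.

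The promoters of the clustered genes and of both calmodulin-like genes are shown, since they bear on what genes with like or unlike signals share. The sequences are RefSeq's for assembly GRCr8 and cover the 250 bases before the start, 5′ to 3′. Capitals mark matches to the AP-1 motif TGANTCA, which Fos and Jun proteins bind, and to the TATA motif TATAAA. The Sbsn sequence belongs to the inner of 2 annotated starts.
Krtdap promoter, chr1:95165612-95165861, + strand: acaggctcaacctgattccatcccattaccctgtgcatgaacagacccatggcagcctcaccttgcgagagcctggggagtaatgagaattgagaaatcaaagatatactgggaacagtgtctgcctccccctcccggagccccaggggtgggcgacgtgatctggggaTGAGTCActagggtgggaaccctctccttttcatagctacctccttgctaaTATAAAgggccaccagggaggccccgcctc
Sbsn promoter, chr1:95128731-95128980, + strand: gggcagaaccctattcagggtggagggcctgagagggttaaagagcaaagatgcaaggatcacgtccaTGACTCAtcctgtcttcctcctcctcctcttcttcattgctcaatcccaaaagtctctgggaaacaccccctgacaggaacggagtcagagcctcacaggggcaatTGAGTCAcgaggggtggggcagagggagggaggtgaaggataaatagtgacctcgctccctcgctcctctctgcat
Dmkn promoter, chr1:95141370-95141619, + strand: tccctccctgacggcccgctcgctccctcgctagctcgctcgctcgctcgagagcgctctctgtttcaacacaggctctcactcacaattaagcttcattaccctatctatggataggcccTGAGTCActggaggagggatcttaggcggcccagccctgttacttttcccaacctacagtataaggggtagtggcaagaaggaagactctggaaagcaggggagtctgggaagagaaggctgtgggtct
Calml5 promoter, chr17:71305246-71305495, - strand: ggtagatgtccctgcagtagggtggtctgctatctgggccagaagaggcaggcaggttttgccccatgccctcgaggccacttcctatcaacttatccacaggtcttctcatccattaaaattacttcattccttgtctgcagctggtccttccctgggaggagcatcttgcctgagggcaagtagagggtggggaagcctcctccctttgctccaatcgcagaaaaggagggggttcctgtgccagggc
Calml3 promoter, chr17:71331276-71331525, + strand: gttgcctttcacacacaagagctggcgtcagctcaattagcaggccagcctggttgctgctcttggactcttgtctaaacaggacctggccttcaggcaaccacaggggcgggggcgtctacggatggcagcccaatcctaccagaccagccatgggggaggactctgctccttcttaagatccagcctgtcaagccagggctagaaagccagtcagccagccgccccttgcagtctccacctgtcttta

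Of the 7 genes, 6 were at least 2-fold lower with RA and 0 were higher, where 5.63% of all 14274 genes past the floor were lower by that much and 7.88% were higher. After removal of a lowess curve over all probe sets these background shares were 4.50% and 10.2%, in the same order, and the differences of the 7 genes kept their side. Nothing is read from this count, since the same contrast was known when the genes were chosen. The 6 genes were lower by 9.62 to 13.27 log2 units, and Calml3 was the exception, with a difference of -0.55. The median difference of the 7 genes was -11.25, against -0.03 for all genes past the floor. The plot of signals by gene shows the 6 pairs wide apart and the Calml3 pair close together.

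**Figure D1:**
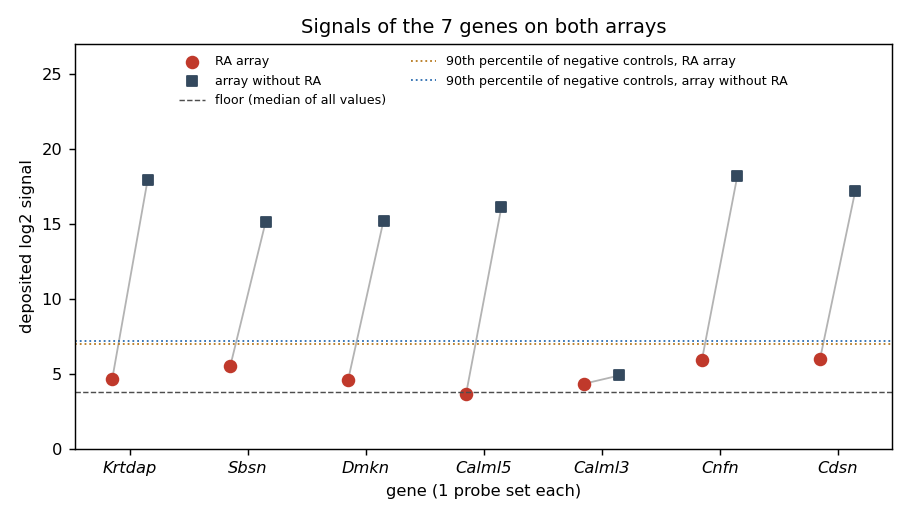
Deposited log2 signal (vertical axis) of each of the 7 genes on the RA array (red circles) and the array without RA (dark squares), 1 array each and no error bars. The lines mark the floor at 3.81 and the 90th percentiles of the negative controls, 6.98 with RA and 7.21 without. All 7 red circles lie under the negative controls' 90th percentile, and 6 of the 7 dark squares lie far above it.

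Among the secreted proteins, Krtdap had a signal of 4.67 on the RA array and 17.94 on the array without RA, a difference of -13.27. Its signal with RA was reached or passed by 45.5% of the negative controls, and its signal without RA by 1 of them. Krtdap thus lay at the level of the negative controls with RA and far above the bulk of them without it.

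Dmkn had a signal of 4.60 with RA and 15.22 without, a difference of -10.61. Sbsn had a signal of 5.50 with RA and 15.12 without, a difference of -9.62. On the RA array 46.3% of the negative controls reached the Dmkn signal and 27.9% reached that of Sbsn. The 3 neighbouring genes were thus all bright without RA and all within the range of the negative controls with it.

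The calmodulin-like genes, next to each other on chromosome 17, had unlike signals, but those of Calml3 were at background and show no pattern of their own. Calml5 had a signal of 3.67 on the RA array, below the floor, and 16.14 on the array without RA. Its difference was -12.47. Calml3 had a signal of 4.34 with RA and 4.89 without, a difference of -0.55. Among negative controls, 52.6% reached the Calml3 signal on the RA array and 41.7% reached it on the array without RA. Calml3 was therefore not told from background on either array, and its small difference says nothing about an expressed transcript. Of the negative controls, 337 had a difference at least as negative as that of Calml3. The other 6 genes were chosen with the same contrast known, so their differences are not ranked against the controls.

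Cnfn, of the cornified envelope, had a signal of 5.95 with RA and 18.20 without, a difference of -12.25. Cdsn, of the corneodesmosome, had a signal of 5.96 with RA and 17.21 without, a difference of -11.25. Of the negative controls, 20.2% reached the RA signal of Cnfn and 20.1% that of Cdsn. Without RA, 1 negative control reached the Cnfn signal and 2 reached that of Cdsn. The RA signals of the 6 lower genes, 3.67 to 5.96, lay within the negative controls, so what is measured is a fall into their range. Cnfn and Cdsn were above the controls' 75th percentile of 5.61 on the RA array, and whether some signal remained was not tested. With RA signals in the range of the controls, the true differences may be larger than the values given. Without RA, 4 of these 6 genes had signals above 16, beyond the log2 range of a 16-bit scanner image. Over all probe sets, 963 values were above 16 on the array without RA and 670 on the RA array. How the scale came to that range is not given, so the differences may also be overstated. Neither was tested. In RNA of a whole culture, fewer cells of a type and less RNA per cell cannot be told apart.

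**Figure D2:**
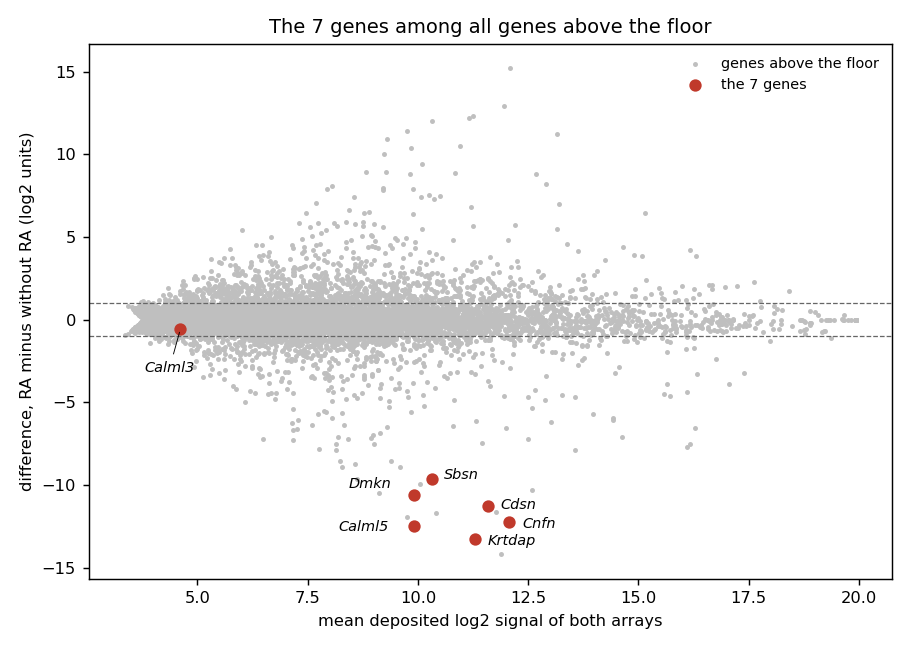
Difference between the arrays (vertical axis, RA minus without RA, log2 units) against the mean log2 signal of both arrays for the 14274 genes above the floor (grey) and the 7 genes (red). Dashed lines mark 2-fold. The 6 lower genes lie between -13.27 and -9.62 at the lower edge of the cloud, and Calml3 lies inside it at -0.55.

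Likeness to other genes was measured as the distance between 2 genes in the plane of both log2 signals, over the 2 arrays and 22093 genes. Among the 10 genes nearest to Cnfn and also among the 10 nearest to Cdsn were Krt10, a keratin of the suprabasal layers, and Krt1, its partner in filaments. Lce3b, a late cornified envelope gene, and Dsg1, which codes for a desmosomal cadherin, were in both sets too. Krt10 had a signal of 5.94 with RA and 17.59 without. With 2 arrays this likeness holds no more than a level and a difference. Probe sets differ in how brightly they report the same amount of RNA, and the RA signals of Krt10, Cnfn and Cdsn lie within the negative controls, so no order is read among these genes.

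The order of genes along the chromosomes was taken from the RefSeq table, with up to 3 protein-coding genes on each side. Of 24 neighbours with a value, 13 were above the floor, of which 2 were lower and 1 higher by 2-fold or more, against 5.63% and 7.88% of all genes past the floor. The median difference of these 13 neighbours was -0.05. None of the neighbours came near the differences of the 6 lower genes.

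In the chromosome 1 cluster the large differences began and ended with the 3 secreted protein genes. Gapdhs, the sperm form of glyceraldehyde phosphate dehydrogenase, is annotated between the starts of Sbsn and Dmkn and had a signal of 3.50 with RA and 3.45 without, below the floor. Tmem147, which codes for a membrane protein of the endoplasmic reticulum and is next to Sbsn, had a signal of 6.43 with RA and 6.84 without. On the side of Krtdap, Rpl36l2 had a signal of 9.09 with RA and 9.07 without, and may share probes with other ribosomal protein copies. The free fatty acid receptor gene Ffar2, one gene further, lay close to the floor on both arrays with a difference of 0.05. The differences of all 7 neighbours measured here ran from -0.41 to 0.05.

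Beside Calml5, the gene Net1 was at 9.73 with RA and 11.07 without, a difference of -1.34. Beyond Calml3, Asb13, Tasor2 and Gdi2, which codes for a Rab regulator, had differences of -0.13, -0.05 and -0.11. The neighbours of Cnfn included Ceacam1, a cell adhesion gene, which was on the opposite side with a signal of 8.67 with RA and 6.41 without. Lipe (hormone-sensitive lipase) and the chemokine gene Cxcl17, between Cnfn and Ceacam1, were below the floor on both arrays.

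Cdsn lies in the major histocompatibility region, where Psors1c2 on one side had a signal of 4.22 with RA and 4.18 without. C20h6orf15 on the other side had a signal of 3.80 with RA, just below the floor, and 4.87 without, a difference of -1.07 between signals that are both near the negative controls' medians. The plot of differences in chromosome order shows the 6 lower genes far below their neighbours, of which Net1, C20h6orf15 and Ceacam1 passed 2-fold. The C20h6orf15 difference lies within -2.17 to 2.01, the range of most negative controls, and is not told from them.

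**Figure D3:**
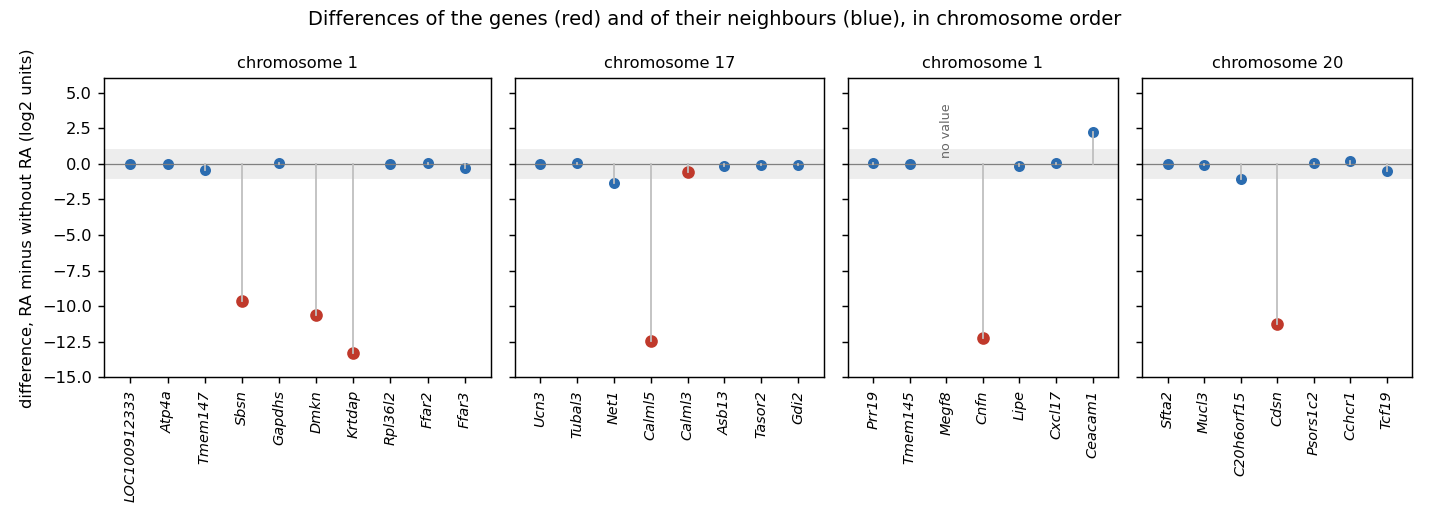
Difference between the arrays (vertical axis, RA minus without RA, log2 units) of the 7 genes (red) and of up to 3 protein-coding genes on each side (blue), by order along the chromosome and not to distance. The grey band marks less than 2-fold. The neighbours lie between -1.34 and 2.26, and the 6 lower genes lie at -9.62 or below.

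Promoter windows of the same length were searched on both strands. The letters TGANTCA occurred in 3 of the 7 genes, Krtdap, Dmkn and Sbsn, and in 6.34% of 33469 annotated rat windows. The matches ended 75 bases before the start in Krtdap, 123 in Dmkn, and 70 and 176 in Sbsn at its inner start. The outer Sbsn start, whose window adjoins Tmem147, held none, nor did the windows of Calml5, Calml3, Cnfn and Cdsn. The AP-1 letters were thus found in all 3 genes of the chromosome 1 cluster and not in the other 4 genes, of which Calml5, Cnfn and Cdsn also had differences of -11.25 or below. TATAAA occurred in the Krtdap window alone of the 7 genes, against 12.9% of windows.

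The C/EBP letters TTGCNNAA occurred in the inner Sbsn window, against 9.22% of all, and the Grainyhead letters AACNNGTT in the outer Sbsn window, against 3.60% of all. The DR1, DR2 and DR5 repeats that RA receptors can bind were found in 0 of the 7 genes. They are rare in windows of this length, with 0.194%, 0.137% and 0.326% of all windows holding one. A match is a likeness of letters only, and the motifs were picked with the signals known.

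Relatives of the calmodulin-like proteins gave another comparison. The calmodulin and centrin family had 6 genes past the floor, of which 0 differed by 2-fold either way as deposited and 1 was higher after removal of the lowess curve, and their median difference was -0.14. Calm3, one of the genes for calmodulin itself, had a signal of 12.13 with RA and 11.49 without. Calm2, another of them, had a signal of 12.97 with RA and 13.50 without on its brighter probe set, and 5.90 with RA and 6.02 without on the other. Calmodulin genes are close in sequence, so their probe sets may share signal. Cetn3 and Cetn2, centrins of the centrosome, differed by -0.70 and 0.33. Calml4, which shares its probe set with Cln6, was not analysed here.

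Calmodulin partners and effectors lay on both sides. Past the floor were 27, of which 3 were higher and 3 lower by 2-fold or more, and the median difference was -0.05. Calcium/calmodulin kinase genes Camk2b (7.52 with RA, 5.15 without) and Camk2d (11.55 with RA, 9.65 without) were higher, as was the kinase inhibitor gene Camk2n1, by 2.22. Sfn, a 14-3-3 protein of stratified epithelia rather than a calmodulin partner, was the most negative of the list at -3.84. Without it 2 of 26 were lower, or 7.69%, a count added after seeing the data. Myo10, myosin X, had a signal of 9.20 with RA and 9.02 without.

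Of 31 genes of keratinocyte calcium sensing and transport, 2 were higher and 3 lower, and the median difference was 0.10. The count on the higher side depended on the scaling, with 6 higher and 2 lower after removal of the lowess curve and 4 higher and 3 lower after quantile normalization. S100a9, of the calprotectin complex, was at 9.62 with RA and 5.69 without, and the calpain gene Capn2 was higher by 1.57. Capns2, a calpain small subunit, was at 4.97 with RA and 8.26 without, and Plcd1, a phospholipase C, was at -1.55. Of the partners, with Sfn counted, 11.1% were lower and 11.1% higher, and of the sensing and transport genes 9.68% were lower and 6.45% higher. These shares rest on few genes and stand beside 5.63% and 7.88% of all genes past the floor.

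For Cdsn, the genes of corneodesmosomes and their proteolysis are the closest set. Of its 22 genes past the floor, 12 were lower by 2-fold or more and 4 were higher by as much, or 54.5% and 18.2% beside 5.63% and 7.88% of all genes past the floor. Those shares of all genes are the background for each list that follows. With the floor at the 75th percentile of all values (5.45) they were 8.25% lower and 11.5% higher. The median difference was -1.92. Dsg1, the cadherin that Cdsn accompanies in corneodesmosomes, had a signal of 4.58 with RA and 16.25 without. Of the kallikreins, secreted proteases of the upper epidermis, Klk7 was at 4.19 with RA and 12.93 without, and Klk10 and Klk6 had differences of -6.55 and -6.43. The members higher with RA, named after their values were seen, were Prss8, Spint1, Ctsl and St14, which code for 2 membrane serine proteases, an inhibitor of such proteases and a lysosomal protease. Their differences were 1.58, 1.97, 2.94 and 3.15, in that order.

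For Cnfn, the other cornified envelope genes are the closest set. Past the floor were 25, of which 17 (68%) were lower by 2-fold or more and 3 (12%) higher, and the median difference was -4.08. Of the lower genes, Crnn and Rptn passed the floor only through the array without RA. With no floor, 17 of the 28 genes measured were lower. Lce3b had a signal of 7.45 with RA and 17.74 without. Lce3fl1, of the same family, and Sprr3, a small proline-rich protein gene, had differences of -9.71 and -7.85. Asprv1, an epidermal protease of filaggrin processing, was at 9.63 with RA and 17.50 without. By protein family Cnfn belongs with Plac8, which had a signal of 6.15 with RA and 3.72 without, with both signals under the negative controls' 90th percentiles, while Plac8l1 was below the floor.

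A list made mostly of other secreted or surface proteins of stratified epithelia was compared with Krtdap, Sbsn and Dmkn. It also holds Gsdma, Ptgs1 and Crct1, which are neither secreted nor surface proteins and were each at least 2-fold lower. Past the floor were 23, of which 15 (65.2%) were lower by 2-fold or more and 1, Il1rn, was higher (4.35%), and the median difference was -2.04. Il36rn, an antagonist of the interleukin-36 receptor, was at 3.51 with RA and 10.81 without. Il36rn, Lypd5 and Slurp1 passed the floor only through the array without RA. Slurp1 and Crct1, with differences of -1.08 and -1.68, had both signals under the negative controls' 90th percentiles and are not told from the controls. With no floor, 15 of the 24 genes measured were lower. Ly6g6c, of the Ly6 surface family, was at 11.06 with RA and 18.17 without, so that with RA it stayed above the negative controls' 90th percentile of 6.98. Spink5, the inhibitor of epidermal kallikreins, did so too, at 11.11 with RA and 16.85 without. Bpifc, of the lipid-binding BPI fold family, was lower by 4.79.

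The suprabasal keratinocyte list had 22 genes past the floor, 18 of them (81.8%) lower by 2-fold or more and 1 (4.55%) higher, and a median difference of -2.80. Krt1 was at 4.78 with RA and 18.98 without, Krt10 had the values given above, and the lipid transporter gene Abca12 was at 5.49 with RA and 12.46 without. The basal keratinocyte list had 14, of which 5 (35.7%) were lower and 3 (21.4%) higher, and a median difference of -0.39. Krt14, the basal keratin that marks the cells as keratinocytes, was at 12.25 with RA and at the highest value of the scale without RA. Itga3, an integrin subunit, was at 15.88 with RA and 10.41 without, Itgb1, another, at 17.96 with RA and 15.96 without, and Col17a1, a hemidesmosomal collagen, at 6.71 with RA and 11.96 without.

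Of 26 transcription factors and regulators of epidermal differentiation, 13 (50%) were lower and 1 (3.85%) was higher, and the median difference was -1.02. Znf750 was at 8.37 with RA and 13.24 without, Cebpa at 6.96 with RA and 10.58 without, and Grhl3 at 8.48 with RA and 11.67 without. The 1 higher gene was Elf3, an epithelial ETS factor, at 14.22 with RA and 6.77 without. The retinoid response list had 6 higher (40%) and 3 lower (20%) of 15, and a median difference of 0.31. Stra6, the receptor for retinol-binding protein and a known target of RA, was at 16.32 with RA and 4.30 without. Tgm2 was at 12.25 with RA and 4.84 without, Dhrs3 at 13.09 with RA and 6.70 without, and Gprc5a at 12.29 with RA and 7.59 without. In the same list Cyp26a1 was below the floor on both arrays, and Rarb was at 3.85 with RA and 3.92 without. The lower genes were Rxra, Crabp2 and Rara, with differences of -2.62, -1.36 and -1.15. Several lists share genes, such as Dsg1 and Spink5, so their counts are not separate results.

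**Figure D4:**
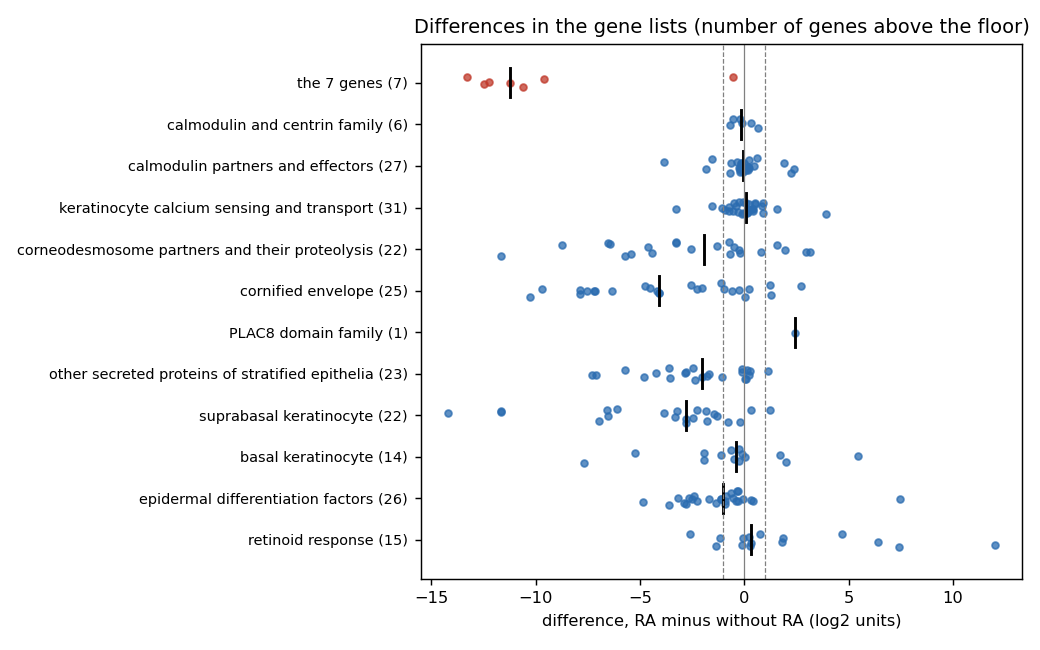
Difference between the arrays (horizontal axis, RA minus without RA, log2 units) of the 7 genes (red) and of the genes above the floor in 11 lists (blue), 1 point per gene, with the median as a black bar and the number of genes in brackets. Dashed lines mark 2-fold. The calmodulin and centrin genes lie within 2-fold on this deposited scale, though 1 passed it after removal of the lowess curve, and the median of the cornified envelope list is at -4.08.

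Markers of cell types that such a culture could also hold differed in places. Of 62 markers in 7 lists, 32 were above the floor, of which 6 were higher with RA (18.8%) and 3 lower (9.38%), where 7.88% of all genes past the floor were higher and 5.63% lower. The hair follicle and sebaceous list had 4 of 9 higher, with summed antilog signals of 13695 with RA and 504 without. They were Krt79 (13.20 with RA, 5.23 without), Krt75, Plin2 and Scd, while the hair keratins Krt25, Krt71 and Krt35 stayed at 4.65 or below with RA. The immune list had 3 of 10 above the floor, with summed antilog signals of 2583 with RA and 74.1 without, nearly all of it Cd68 (11.31 with RA, 5.41 without), while Ptprc, Cd3e, Cd207 and Csf1r were below the floor on both arrays. In the Merkel cell and neuron list 1 of 5 was lower, Tubb3, with summed antilog signals of 235 with RA and 3175 without. In the fibroblast list 1 of 5 was higher, Fbln1, and 1 lower, Col3a1, with sums of 516 with RA and 263 without, and Col1a1 and Col1a2 differed by -0.04 and -0.08. In the endothelial list 1 of 2 was lower, Tek, and in the melanocyte and muscle lists 0 of 3 and 0 of 5 passed 2-fold. Their part in the differences of the 7 genes was not tested.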

How the data were processed

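The deposited log2 signals cover 70580 probe sets on 2 arrays. Per the submitters' processing notes, the authors used RMA and the Transcriptome Analysis Console, with no versions named. That the unit is log2 was judged from the range of the values. No genome build was given.

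Groups came from the sample titles. Probe sets with 1 gene symbol in the platform annotation (23446) were kept, whereas 505 with several symbols and 46629 without one were not used. The brightest probe set by the mean of both arrays stood for a gene. All 7 genes matched RefSeq's table by symbol, 6 of them also by Entrez gene ID. The 7 genes, the 18 lists and the motifs were chosen with earlier results of these data known. Genes named in the text are the 7, their neighbours, the 10 nearest, up to 4 genes of each list by absolute difference, set genes (Calm2, Calm3, Calml4, Krt1, Krt10, Stra6), and some chosen after their values were seen, among them the less changed markers, Myo10, Il1rn and Plac8l1. Python 3.11.15, pandas 2.3.3 and numpy 2.4.6 were used, with statsmodels 0.14.6 for lowess (span 0.2). Counting and motif search were tested on simulated data, which checks the code only. The simulated scatter was narrower than that of the negative controls, so the simulation does not show how often noise passes 2-fold. No test across samples was possible with 1 array per group, which also limits the precision. Alternatives covered scaling, floor, threshold and the choice of probe set.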

Additional observations from a re-analysis of the deposited data

How the results depend on the processing

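No paired analysis was possible because the study has 1 array of RA-treated and 1 of cells without RA, and for the same reason none was left out in turn. Under 7 alternatives of scaling, floor and probe set choice, the differences of the 6 lower genes ran from -13.27 to -9.19 and that of Calml3 from -0.55 to -0.48, with 0 of 48 values changing sign. With the floor at the 75th percentile (5.45), Calml3 left the set. The mean difference of the 7 genes was -10.00, and their median without Calml3, an alternative chosen after seeing the data, was -11.75. The cornified envelope median was -2.42 with values raised to the floor or with no floor, since genes below the floor then enter. At the 75th percentile floor the corneodesmosome median was -2.90 and that of the other secreted proteins -2.86, since fewer genes enter. Of 153 other list counts, 18 moved by more than 1.5 times, 15 of them under another fold threshold. The other 3 were higher counts under scaling, given with the calmodulin family and the calcium list. With lowess scaling the median of all genes was 0.08, against -0.03 as reported, and 69.3% of the genes past 2-fold were higher, against 58.3%.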

Other observations

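The Fos and Jun genes code for the subunits that bind the AP-1 letters found in the Krtdap, Sbsn and Dmkn windows, and were looked at after those matches were seen. Of 7 such genes, 2 were at least 2-fold lower with RA and 0 higher, where 5.63% of all genes past the floor were lower and 7.88% higher. Jun was at 5.95 with RA and 8.05 without, and Fosl2 at 6.62 with RA and 7.76 without. Their differences, -2.10 and -1.14, lie within -2.17 to 2.01, the range of most negative controls. Their signals without RA were above the controls' 90th percentile of 7.21 on that array. Junb was at 10.40 with RA and 10.06 without, and Jund at 7.82 with RA and 8.05 without. Fosl1 was at 5.51 with RA and 5.30 without, Fos at 5.06 with RA and 5.66 without, and Fosb at 4.20 with RA and 4.10 without.

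An AP-1 match in at least 1 promoter window was held by 9.28% of 625 genes that were at least 2-fold lower and had a window. The share was 6.07% of 889 genes at least 2-fold higher and 5.74% of all 11129 genes above the floor with a window. These shares are descriptions, not tests.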
